A study of Homo sapiens with 12 samples.

Results

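The genes that build cholesterol and fatty acids were followed through BMP signaling and loss of *MIB1* in lung cancer cells. They are 28 genes of the SREBP pathway, chosen by symbol and found in the count table through GENCODE v44, out of 58302 gene identifiers. All 28 passed the filter on low counts, among 17188 genes tested. By role they are 7 enzymes of the mevalonate pathway, 11 of the squalene and sterol steps, 4 regulators, 2 sterol carriers and 4 enzymes of fatty acid synthesis.

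RNA came from NCIH838, an established lung cancer cell line, as a clone (MIB1-iKO) in which doxycycline (Dox) induces Cas9 and so disrupts *MIB1*, an E3 ubiquitin ligase. There were 12 libraries in 4 groups of 3. Per the labels every group was held for 3 days with LDN at 50 nmol/L, which inhibits BMP type I receptors, and then received 10 ng/mL BMP4 for 24 hours. MIB1 KO groups had 0.5 μg/mL Dox and MIB1 WT groups had none. LDN was continued at 50 nmol/L beside BMP4 in BMP-off groups, and DMSO took its place in BMP-on groups. The labels give no group without BMP4. The study's results text likewise gives LDN to MIB1-iKO and control cells during this time. Its methods also name DMSO as an option during the pretreatment and its scheme draws LDN there for Dox cells only. If WT cells had no LDN then, pretreatment and *MIB1* loss cannot be told apart in any comparison of KO with WT. What Dox or Cas9 cutting did by itself cannot be told apart from *MIB1* loss. The labels do not say that replicates were separate cultures, so p values measure the spread between these libraries, which may be technical.

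Cholesterol is built from acetyl-CoA through mevalonate, farnesyl diphosphate, squalene and lanosterol, and fatty acids are built from the same acetyl-CoA. The transcription factors SREBP drive most of these genes. When sterols are plentiful, INSIG holds SCAP and its SREBP cargo in the endoplasmic reticulum, and when sterols run low the complex moves to the Golgi, where SREBP is cut and freed. Dividing cancer cells, including lung cancer cells, use both routes to make membranes.

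Total counts were 19124010 to 29498000 per library. *MIB1* transcript lay between 31.0 and 34.4 CPM (counts relative to the library size after TMM scaling) in the 6 KO libraries and between 144 and 176 CPM in the 6 WT libraries. The KO mean was 21.4% (BMP-off) and 19.7% (BMP-on) of the WT mean. The epithelial markers summed to 312 to 480 CPM, with *KRT19* near 0. With BMP *KRT7* rose and *EPCAM* fell in both genotypes, and *KRT8* rose in KO cells. Of 11 markers of other cell types, *COL1A1* rose and *CDH5* fell with BMP in KO cells, and *PTPRC* was at 0 in every group. *CDH5* was near the floor in KO cells, at means of 0.355 CPM (BMP-off) and 0.0690 CPM (BMP-on). The 11 markers summed to 14.1 to 23.3 CPM with BMP-off and 31.2 to 44.6 CPM with BMP-on, and to 2.72 to 3.92 CPM without *COL1A1*, and their part in the results was not tested. Libraries differed in how counts followed the GC content of a transcript. Taken from the mean of each library's own group, Spearman's rho across genes was -0.603 and 0.586 in KO BMP-off replicates 2 and 3. It lay between -0.425 and 0.396 in the others. A deviating library shifts its group mean, so the value of replicate 3 does not show by itself that replicate 3 deviated.

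The pathway was strongly expressed. On the authors' RPKM scale, which divides by gene length, the median of the members was 23.1 over all libraries, against 5.26 for all genes tested. *SCD*, the desaturase that makes oleate, stood highest at 121 ± 8.56 RPKM (SD, n = 12), followed by *ACLY*, which makes cytosolic acetyl-CoA from citrate, at 113 ± 3.84 RPKM (SD, n = 12). Their ranges of 1 SD met, so their order is not clear. *FDPS*, *DHCR7*, *IDI1* and *SREBF1* came next, at 59.4, 43.6, 43.1 and 42.1 RPKM. The lowest were *HSD17B7* at 2.49 ± 0.374 RPKM (SD, n = 12) and *STARD4* at 0.129 ± 0.0353 RPKM (SD, n = 12), the latter from a mean of 17.2 counts per library.

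Across the 4 groups most members moved little. For 17 of 28 the highest group mean was under 1.2 times the lowest (60.7%), against 50.9% of all genes tested, and the median ratio was 1.17 against 1.20. The steadiest was *SQLE*, squalene epoxidase, at a ratio of 1.04. *TM7SF2*, a sterol reductase that acts after CYP51A1, had the widest ratio at 2.02. *FASN*, *STARD4*, *MVD* and *SREBF1* followed at 1.52, 1.46, 1.45 and 1.31.

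**Figure D1:**
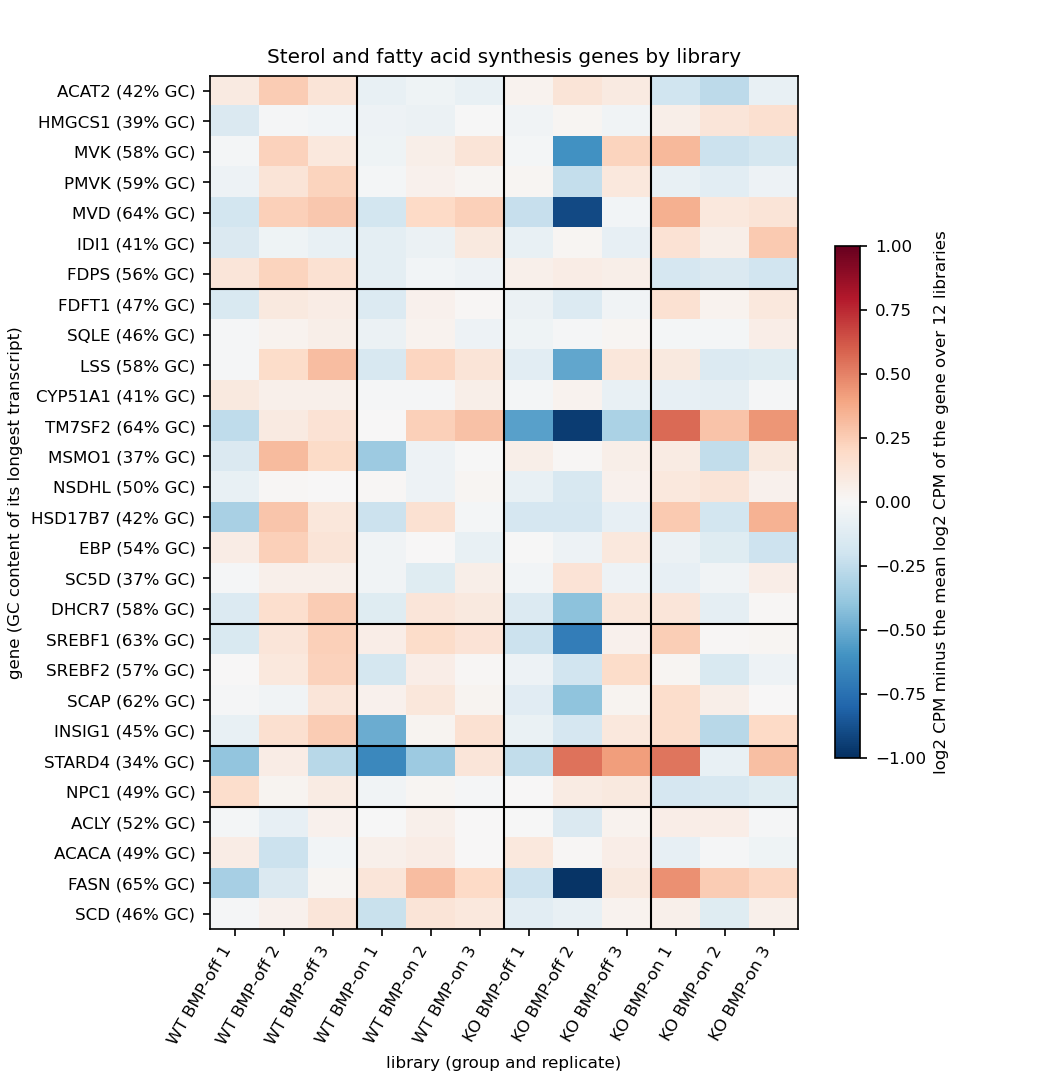
Level of the 28 genes (vertical axis, with the GC content of the longest transcript) in each of the 12 libraries (horizontal axis), as log2 CPM minus the mean of that gene over 12 libraries. Black lines separate roles and groups. The dark blue cells in KO BMP-off replicate 2 fall in the GC-rich members, and *TM7SF2* is low in all 3 KO BMP-off libraries.

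The BMP comparisons set LDN removed (BMP-on) against LDN continued (BMP-off), first with and then without *MIB1*. BMP4 was present in both states, so BMP signaling and any other effect of LDN cannot be told apart. The term BMP response stands for this difference. A gene was called when its p value, adjusted by the Benjamini-Hochberg method over all genes tested, was 0.05 or less in edgeR's quasi-likelihood test. In MIB1 WT cells 2 of 28 members were called, both lower with BMP-on, against 3.92% of all genes tested (2.01% lower). The median log2 fold change of the members was -0.052, against 0.0016 for all genes. For 23 members (82.1%) the 95% confidence interval lay within 0.5 on either side of zero on the log2 scale, as it did for 65.1% of all genes. In MIB1 KO cells 5 members were called, against 22.0% of all genes tested. Of these, 2 were higher (background 11.1%) and 3 lower (background 10.9%). Their share, 17.9%, was near the background. Here the median of the members was 0.088, against 0.0056 for all genes, and 21 intervals (75.0%) lay within 0.5, against 56.4%. Only *TM7SF2* also reached a log2 fold change of 1, the study's second threshold, which with the adjusted p was passed by 1.66% of all genes in KO cells and by 0.425% in WT cells, where no member passed it.

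**Figure D2:**
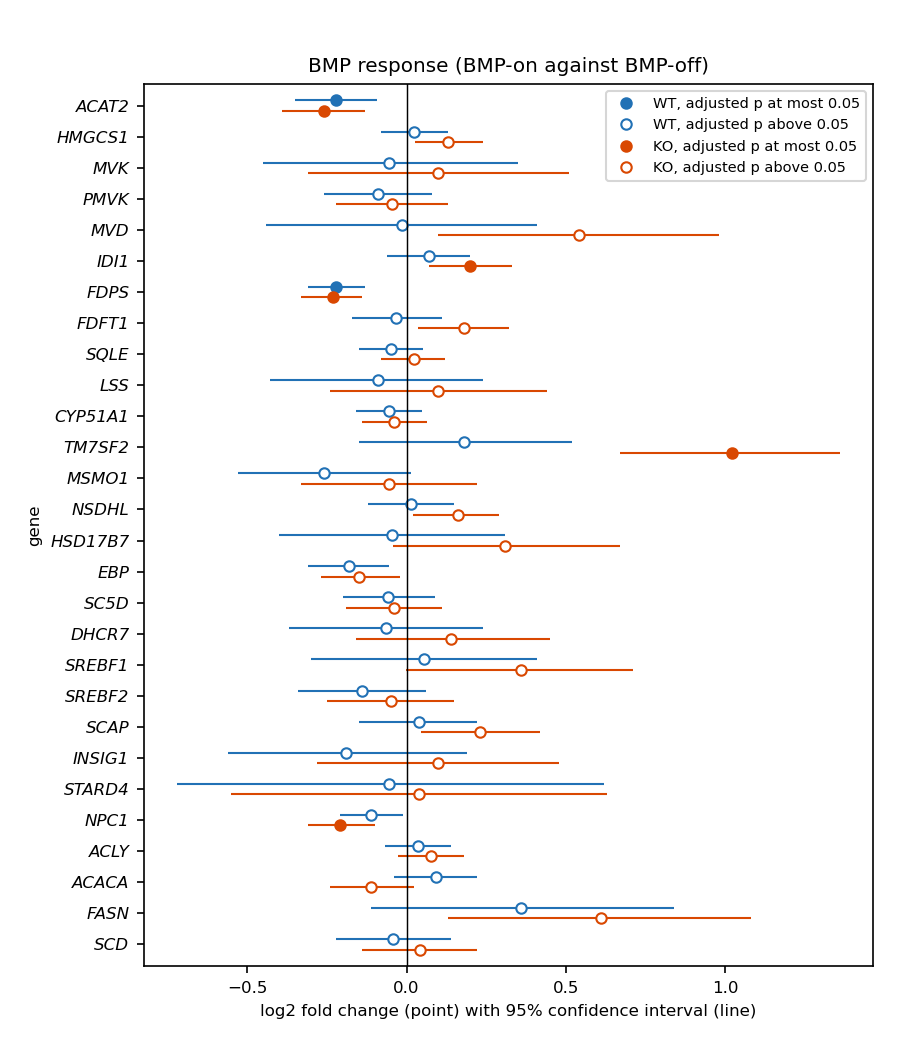
Log2 fold change of BMP-on against BMP-off (horizontal axis) for each gene (vertical axis), with 95% confidence intervals, in MIB1 WT (blue) and MIB1 KO cells (orange). Filled points passed the adjusted threshold, which are 2 genes in WT and 5 in KO cells, and *TM7SF2* in KO cells lies apart at 1.02.

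*TM7SF2* (ENSG00000149809, GRCh38 chromosome 11, 65111845 to 65116384, plus strand) gave 32.0, 40.7 and 42.2 CPM in WT BMP-off libraries and 38.3, 45.0 and 46.7 CPM in WT BMP-on libraries. In KO cells it gave 26.2, 19.8 and 30.7 CPM with BMP-off and 56.5, 46.5 and 51.8 CPM with BMP-on. The KO BMP-off libraries were the lowest 3 of the 12 and did not overlap with the KO BMP-on libraries, whereas the WT groups overlapped. In KO cells the transcript rose by a log2 fold change of 1.02 (SE 0.16, 95% confidence interval 0.67 to 1.36, edgeR Benjamini-Hochberg adjusted p = 8.73e-04). In WT cells the difference was 0.18 (SE 0.15, edgeR Benjamini-Hochberg adjusted p = 0.639). KO and WT responses differed by 0.83 (SE 0.22, edgeR Benjamini-Hochberg adjusted p = 0.203), so a larger response in KO cells was not established in this fit. That adjusted p ranged from 2.75e-06 to 0.470 over 26 alternatives and passed the threshold in 5 of them, among them DESeq2 (0.00592), a GC correction (0.00108) and the fit without KO BMP-off replicate 3 (0.0409).

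The *TM7SF2* transcript is GC-rich (64.2%), and its lowest value came from KO BMP-off replicate 2. After the GC correction its levels were 29.6, 29.0 and 29.5 CPM in KO BMP-off and 45.8, 42.9 and 47.5 CPM in KO BMP-on libraries, against 37.0 to 43.3 CPM in WT libraries. The groups of KO cells still did not overlap, and the KO BMP-off libraries still lay below every WT library. The KO response was then 0.63 (SE 0.059, edgeR Benjamini-Hochberg adjusted p = 1.99e-08), and it was 0.86 without KO BMP-off replicate 2. *TM7SF2* shares 18 of its 3408 exonic bases with the end of *VPS51*, its upstream neighbor on the same strand. *VPS51*, a subunit of a vesicle tethering complex, had a KO response of 0.50 (SE 0.17, edgeR Benjamini-Hochberg adjusted p = 0.0640), and its part in the *TM7SF2* counts was not tested.

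**Figure D3:**
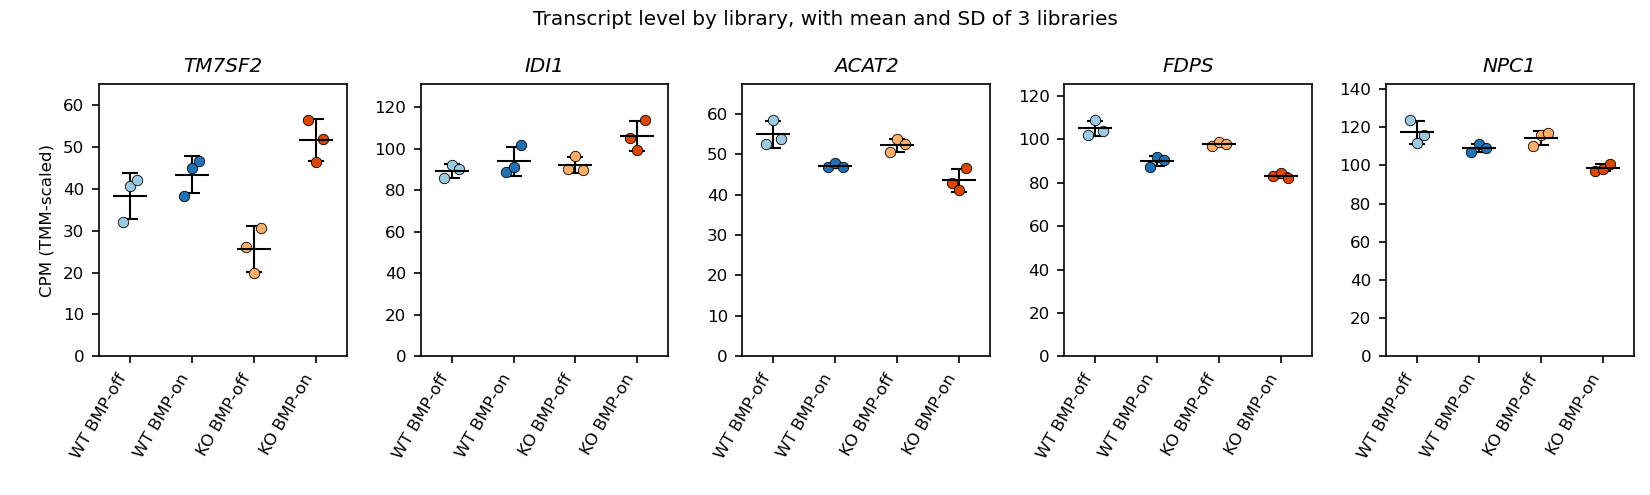
CPM (vertical axis, from zero) of the 5 genes called in a BMP response, in each library (points) of the 4 groups (horizontal axis), with the mean and SD of 3 libraries (black). *TM7SF2* is lowest in the 3 KO BMP-off libraries, while *ACAT2* and *FDPS* are lower with BMP-on in both genotypes.

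Within the mevalonate pathway the entry enzyme and the last enzyme were lower with BMP-on. *FDPS*, farnesyl diphosphate synthase (ENSG00000160752, GRCh38 chromosome 1, 155308748 to 155320666, plus strand), gave 102, 109 and 104 CPM in WT BMP-off and 87.4, 91.8 and 90.6 CPM in WT BMP-on libraries. In KO cells it gave 97.1, 98.5 and 97.6 CPM with BMP-off and 83.2, 84.5 and 82.0 CPM with BMP-on. The groups did not overlap in either genotype. *FDPS* fell by 0.22 on the log2 scale in WT cells (SE 0.044, edgeR Benjamini-Hochberg adjusted p = 0.00799) and by 0.23 in KO cells (SE 0.045, edgeR Benjamini-Hochberg adjusted p = 0.00151). KO minus WT, these responses differed by -0.012 (95% confidence interval -0.15 to 0.12). In a bulk library, less transcript in every cell and fewer cells with the transcript cannot be told apart.

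*ACAT2*, the cytosolic thiolase that joins acetyl-CoA units (ENSG00000120437, GRCh38 chromosome 6, 159762045 to 159779112, plus strand), gave 52.4, 58.5 and 53.6 CPM in WT BMP-off and 46.7, 47.7 and 46.7 CPM in WT BMP-on libraries. In KO cells it gave 50.4, 53.6 and 52.4 CPM with BMP-off and 42.9, 41.0 and 46.6 CPM with BMP-on. Every BMP-on library lay below every BMP-off library. *ACAT2* fell by 0.26 in KO cells (SE 0.06, edgeR Benjamini-Hochberg adjusted p = 0.00560) and by 0.22 in WT cells (SE 0.059, edgeR Benjamini-Hochberg adjusted p = 0.0493). The WT call was at the edge of the threshold and held in 11 of 27 alternatives, with an adjusted p between 0.00794 and 0.236.

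*IDI1*, the isomerase that readies the isoprene unit for chain building (ENSG00000067064, GRCh38 chromosome 10, 1039152 to 1049119, minus strand), gave 90.1, 96.5 and 89.9 CPM in KO BMP-off and 105, 99.3 and 114 CPM in KO BMP-on libraries. WT libraries gave 85.8, 92.1 and 90.2 CPM with BMP-off and 88.7, 91.3 and 102 CPM with BMP-on. The KO groups did not overlap and the WT groups did. *IDI1* rose by 0.20 in KO cells (SE 0.062, edgeR Benjamini-Hochberg adjusted p = 0.0280), with an adjusted p of up to 0.207 over 27 alternatives. It lost the call in 10 of them, with KO BMP-off replicate 1 or 3 or KO BMP-on replicate 1 or 3 left out among these.

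*NPC1*, the lysosomal membrane protein that releases cholesterol taken up by the cell (ENSG00000141458, GRCh38 chromosome 18, 23506184 to 23586506, minus strand), gave 110, 116 and 117 CPM in KO BMP-off and 97.3, 98.2 and 101 CPM in KO BMP-on libraries. WT libraries gave 124, 112 and 116 CPM with BMP-off and 107, 111 and 109 CPM with BMP-on. BMP-on libraries lay below BMP-off libraries in both genotypes. *NPC1* fell by 0.21 in KO cells (SE 0.048, edgeR Benjamini-Hochberg adjusted p = 0.00598) and missed the threshold in WT cells.

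For all 5 called genes another counted gene shares exonic bases, which are 454 of 2639 for *ACAT2* with *TCP1*, 693 of 3718 for *FDPS* with *RUSC1-AS1*, 643 of 4294 for *IDI1* with *IDI2-AS1* and 619 of 9705 for *NPC1* with *RMC1*, all on the opposite strand. Whether reads were counted by strand is not given in the sources used here, and without strand such reads cannot be told apart. None of these neighbors was called in a comparison, but in both BMP responses each had the sign of its member. In WT and KO cells the log2 fold change was -0.25 (SE 0.13) and -0.22 (SE 0.13) for *RUSC1-AS1*. It was 0.76 (SE 0.27) and 0.36 (SE 0.24) likewise for *IDI2-AS1*. For *TCP1* it was -0.04 and -0.083, and for *RMC1* -0.085 and -0.11. The part of these neighbors in the member counts was not tested. *FDPS* and *IDI1* also have named pseudogenes, as do *CYP51A1*, *HSD17B7* and *SCD*, so reads may be split between copies.

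The promoter stretches of 3 members are shown because *TM7SF2* and *FDPS* moved in opposite directions and *SREBF2* holds the sterol element that SREBP binds. They are RefSeq sequences on GRCh38.p14, 5′ to 3′ on the plus strand, with capitals for TCACNCCA (core of the sterol element), CCAAT (bound by NF-Y) or GGCGCC (bound by SMAD proteins of the BMP branch) on either strand. For *TM7SF2* only 30 bases around GGCGCC are shown (chr11:65111754-65111783), since the *VPS51* transcript runs through that promoter. *FDPS* is shown from chr1:155308616-155308747 and *SREBF2* from chr22:41832855-41833104, up to the first annotated base of each gene.
TM7SF2: tgaggcttctgaGGCGCCcgcgtcgggtcc
FDPS: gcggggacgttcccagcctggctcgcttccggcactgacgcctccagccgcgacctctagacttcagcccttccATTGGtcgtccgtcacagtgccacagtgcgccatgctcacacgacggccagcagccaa
SREBF2: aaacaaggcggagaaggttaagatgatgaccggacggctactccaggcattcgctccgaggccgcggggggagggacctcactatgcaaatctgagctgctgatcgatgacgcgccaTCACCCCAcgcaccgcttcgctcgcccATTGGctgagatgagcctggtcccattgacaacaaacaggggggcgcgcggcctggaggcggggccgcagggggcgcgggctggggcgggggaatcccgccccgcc

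Promoters of 24 members were listed, as 32 stretches of 250 bases before a start site. TCACNCCA occurred in 3 of them (*MSMO1*, *MVK* and *SREBF2*; 9.38%), against 3.20% of all 35116 promoters listed. CCAAT occurred in 23 (71.9%), against 32.0%, and GGGCGG, bound by SP1, in 29 (90.6%), against 42.6%. The *TM7SF2* promoter held both and the *FDPS* promoter also held GGGCGG, outside the bases shown above. GGCGCC occurred in 14 (43.8%), against 16.4%. These came from 10 genes, among them *TM7SF2* and *IDI1*, called higher with BMP-on in KO cells, and *NPC1*, called lower there, but not *FDPS*. GGGCGG and GGCGCC are favored by GC-rich sequence. These are matches of letters and not binding sites, and their part in the direction of any gene was not tested.

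The other enzymes of the mevalonate pathway were not called in either BMP response in the main edgeR fit (12 libraries, uncorrected counts). Over 27 alternatives the KO response was called in 3 for *HMGCS1*, 2 for *PMVK*, 5 for *MVD* and 0 for *MVK*. *HMGCS1*, HMG-CoA synthase, averaged 84.7 ± 4.19 (BMP-off) and 86.0 ± 1.86 CPM (BMP-on) in WT cells and 87.3 ± 1.86 and 95.5 ± 3.33 CPM likewise in KO cells (SD, n = 3 per group, the same order and n for the genes that follow). It was higher with BMP-on without overlap in KO cells, where the difference missed the threshold. *MVK*, mevalonate kinase, averaged 12.2 ± 1.02, 11.7 ± 0.718, 10.6 ± 2.93 and 11.3 ± 2.48 CPM. The level of *PMVK*, phosphomevalonate kinase, was 45.3 ± 4.29, 42.5 ± 0.881, 41.2 ± 4.99 and 39.8 ± 0.789 CPM. After the GC correction its BMP-on libraries lay below its BMP-off libraries in both genotypes, in KO cells at 35.2 to 39.0 against 43.9 to 46.0 CPM. *MVD*, the decarboxylase of the pathway, averaged 11.7 ± 1.94, 11.5 ± 1.76, 8.55 ± 2.50 and 12.4 ± 1.25 CPM. The low KO BMP-off mean of *MVD* came with 5.78 CPM in replicate 2, against 9.21 and 10.6 CPM in the other two libraries.

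Of the 11 squalene and sterol enzymes, *TM7SF2* alone was called in the main edgeR fit (12 libraries, uncorrected counts). *FDFT1*, squalene synthase, averaged 89.8 ± 8.21, 87.6 ± 5.57, 84.5 ± 3.07 and 95.5 ± 3.90 CPM. In KO cells it was higher with BMP-on without overlap, and that response was called in 6 of 27 alternatives. *SQLE* averaged 85.2 ± 2.22, 82.3 ± 2.94, 83.0 ± 1.66 and 84.3 ± 2.89 CPM, so all groups lay within a few CPM of each other. *LSS*, lanosterol synthase, averaged 45.4 ± 5.01, 42.5 ± 5.64, 36.5 ± 7.82 and 39.0 ± 3.58 CPM. *CYP51A1*, which demethylates lanosterol, varied less, at 72.1 ± 1.48, 69.5 ± 1.91, 67.9 ± 2.45 and 66.0 ± 1.98 CPM. Its KO libraries lay below its WT libraries in both BMP states, by differences that missed the threshold.

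The enzymes that remove the methyl groups of the sterol ring were not called either. *MSMO1*, a methylsterol oxidase, averaged 40.4 ± 6.41, 33.6 ± 4.44, 37.9 ± 0.729 and 36.4 ± 4.70 CPM. *NSDHL*, a sterol dehydrogenase, averaged 29.6 ± 1.01, 29.9 ± 0.798, 28.7 ± 2.03 and 32.0 ± 0.958 CPM. *HSD17B7*, the matching reductase, averaged 3.99 ± 0.820, 3.82 ± 0.489, 3.52 ± 0.119 and 4.32 ± 0.816 CPM. Their BMP-on and BMP-off libraries overlapped, apart from *NSDHL* in KO cells, where BMP-on libraries lay above BMP-off libraries.

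The last enzymes of the route began with *EBP*, a sterol isomerase, at 73.3 ± 4.25, 64.6 ± 1.88, 67.1 ± 3.75 and 60.6 ± 3.11 CPM. BMP-on libraries of *EBP* lay below BMP-off libraries in WT and in KO cells, and both differences missed the threshold in this fit. *SC5D*, a sterol desaturase, averaged 32.8 ± 0.857, 31.5 ± 1.99, 32.7 ± 2.36 and 31.8 ± 1.69 CPM. *DHCR7*, a reductase that yields cholesterol, averaged 119 ± 16.3, 114 ± 10.6, 102 ± 18.4 and 112 ± 8.82 CPM. Neither separated by BMP state.

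No regulator was called in the main edgeR fit (12 libraries, uncorrected counts). *SREBF1*, which encodes the SREBP that favors fatty acid genes, averaged 190 ± 25.2, 197 ± 7.82, 150 ± 37.4 and 192 ± 18.3 CPM, and *SREBF2*, which encodes the SREBP that favors cholesterol genes, averaged 159 ± 12.3, 144 ± 12.8, 146 ± 18.9 and 141 ± 8.71 CPM. *SCAP*, the SREBP escort, averaged 104 ± 6.03, 106 ± 3.25, 91.6 ± 13.5 and 107 ± 6.50 CPM. *INSIG1*, its anchor and itself an SREBP target, averaged 30.4 ± 3.51, 26.5 ± 5.89, 27.2 ± 2.61 and 29.0 ± 5.10 CPM. The wide KO BMP-off spread of *SREBF1* and *SCAP* came with their lowest value in replicate 2, 111 and 77.0 CPM. The KO response of *SCAP* was 0.23 on the log2 scale and was called in 7 of 27 alternatives, DESeq2 and limma-voom among them, but it was -0.088 after the GC correction, where it was not called. *SREBF2* was called lower after that correction, with log2 fold changes of -0.19 in WT (edgeR adjusted p = 0.0154) and -0.22 in KO cells (edgeR adjusted p = 0.00189). Transcript levels do not measure how much SREBP was cut.

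*STARD4*, a soluble sterol carrier, averaged 0.581 ± 0.101, 0.551 ± 0.152, 0.802 ± 0.215 and 0.800 ± 0.166 CPM. At 10 to 25 counts per library, differences of this size were not detectable.

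None of the fatty acid enzymes was called in the main edgeR fit (12 libraries, uncorrected counts). *ACLY* averaged 468 ± 20.0, 480 ± 10.3, 462 ± 30.6 and 488 ± 14.8 CPM. *ACACA*, acetyl-CoA carboxylase, averaged 82.3 ± 8.09, 87.8 ± 2.28, 88.8 ± 2.81 and 82.5 ± 1.86 CPM. *SCD* averaged 647 ± 29.5, 628 ± 81.0, 604 ± 30.1 and 622 ± 43.2 CPM. The KO BMP-on libraries of *ACACA* lay below its KO BMP-off libraries, and the BMP states of *ACLY* and *SCD* overlapped in both genotypes.

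*FASN*, fatty acid synthase, was the member after *TM7SF2* with the widest range. It gave 155, 177 and 198 CPM in WT BMP-off and 213, 242 and 225 CPM in WT BMP-on libraries. In KO cells it gave 169, 99.1 and 209 CPM with BMP-off and 268, 233 and 226 CPM with BMP-on. BMP-on libraries lay above BMP-off libraries in both genotypes, and the difference was not called in either. Its KO adjusted p was 0.0681 in edgeR's test with Benjamini-Hochberg adjustment, 0.0331 with DESeq2 and 0.111 after the GC correction, which moved its log2 fold change from 0.61 to 0.21. In WT cells the correction moved it from 0.36 to 0.22.

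Groups without overlap between BMP states, called or not, were seen for 1 member higher and 4 lower in WT cells, against 23.9% of all genes, and for 7 higher and 5 lower in KO cells, against 35.8% of all genes.

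The KO responses of the members varied with GC content. Of the 11 members with a GC content of at least 55%, 10 (all but *FDPS*) had their lowest value of the 12 libraries in KO BMP-off replicate 2, against 2 of the 17 others (*NSDHL* and *ACLY*). The median deviation from the gene's own mean in that library was -0.52 for the GC-rich members and 0.01 for the others, on the log2 scale. In KO BMP-off replicate 3 these medians were 0.097 and 0.035. They were 0.22 and 0.061 in WT BMP-off replicate 3, and 0.17 and 0.061 in KO BMP-on replicate 1. By this measure KO BMP-off replicate 3 did not stand apart. Over the 28 members, which share these libraries, the KO response had a Pearson's r of 0.480 with GC content (Spearman's rho 0.398) and -0.148 after the GC correction (Spearman's rho -0.228). These are descriptions across genes. With the correction 10 members were called in KO cells, 4 higher and 6 lower, against 24.7% of all genes, and 5 were called in WT cells, all lower, against 8.96% of all genes. Calls over all genes in WT cells then numbered 585 higher and 955 lower, where they had been 328 and 346. How much of each uncorrected difference came from GC content was not tested.

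**Figure D4:**
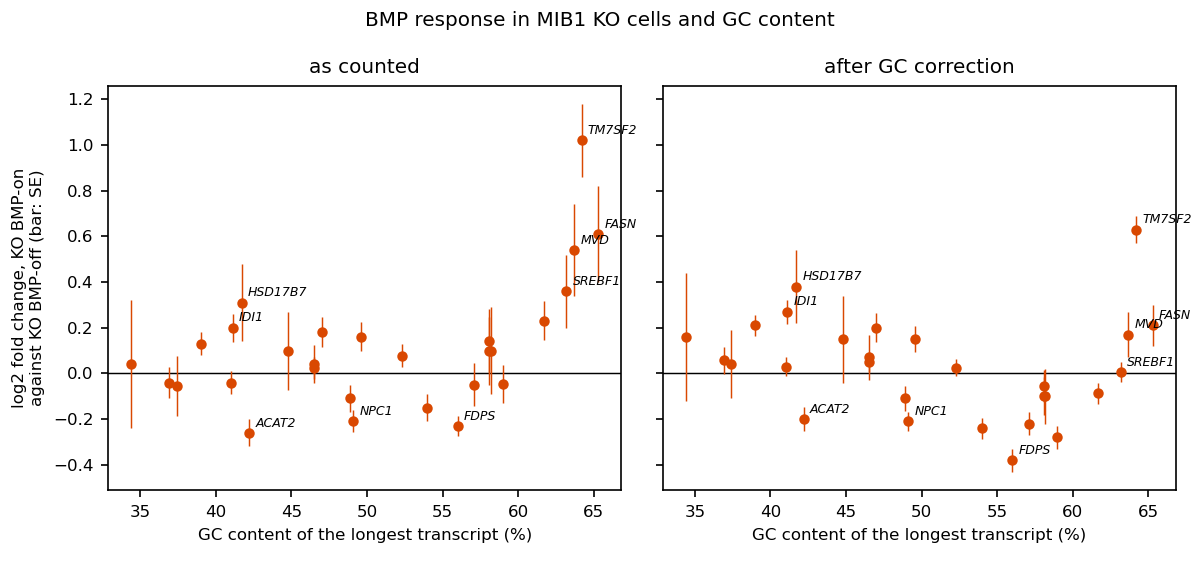
Log2 fold change of BMP-on against BMP-off in MIB1 KO cells (vertical axis, bars show the SE) against the GC content of the longest transcript (horizontal axis, percent) for 28 genes, as counted (left) and after the GC correction (right). *FASN*, *MVD* and *SREBF1* move toward zero on the right, and *TM7SF2* stays highest, at 0.63.

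The comparison of MIB1 KO with WT asks whether *MIB1* loss alters these genes at a given BMP state. With BMP-on 0 of 28 members were called by edgeR, against 3.67% of all genes tested, and 4 had an unadjusted p under 0.05, as did 13.8% of all genes. DESeq2 and limma-voom also called 0. The median log2 fold change of the members was 0.013, against 0.0025 for all genes, and 22 intervals (78.6%) lay within 0.5 on either side of zero, against 66.5%. *HMGCS1* and *NSDHL* were higher and 6 members lower without overlap, against 23.6% of all genes without overlap. *HMGCS1* had the smallest adjusted p, and it was called when only these 2 groups were fitted and after the GC correction.

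With BMP-off 0 of 28 members were called by edgeR, against 0.0407% of all genes tested, and 4 had an unadjusted p under 0.05, as did 10.2% of all genes. DESeq2 called 1 (*TM7SF2*) and limma-voom 0. The members lay on the lower side in KO cells, with 24 of 28 differences below zero and a median of -0.099. Over all genes 9017 of 17188 were below zero and the median was -0.0086. This went with GC content, at a Pearson's r of -0.714 over the 28 members (Spearman's rho -0.732). After the GC correction it was -0.412 (Spearman's rho -0.189), when 24 differences were still below zero and the median was -0.071. Without KO BMP-off replicates 2 and 3 the median was -0.098, from a single KO BMP-off library. In 3 members, *FDPS*, *CYP51A1* and *TM7SF2*, the groups did not overlap, all lower, against 11.7% of all genes. *TM7SF2* averaged 25.5 ± 5.46 CPM in KO libraries and 38.3 ± 5.53 CPM in WT libraries (SD, n = 3 each), a difference of -0.58 on the log2 scale with a 95% confidence interval from -0.93 to -0.24. Its adjusted p was 0.350 in edgeR's test with Benjamini-Hochberg adjustment, 0.0176 with DESeq2 and 0.00102 after the GC correction. This difference and the KO response of *TM7SF2* share the KO BMP-off libraries. The study's proteomics, from MIB1-iKO cells after 3 days of Dox, lists TM7SF2 protein as higher in KO than in WT cells. That is protein at another time and treatment, and its relation to these transcript levels was not tested.

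**Figure D5:**
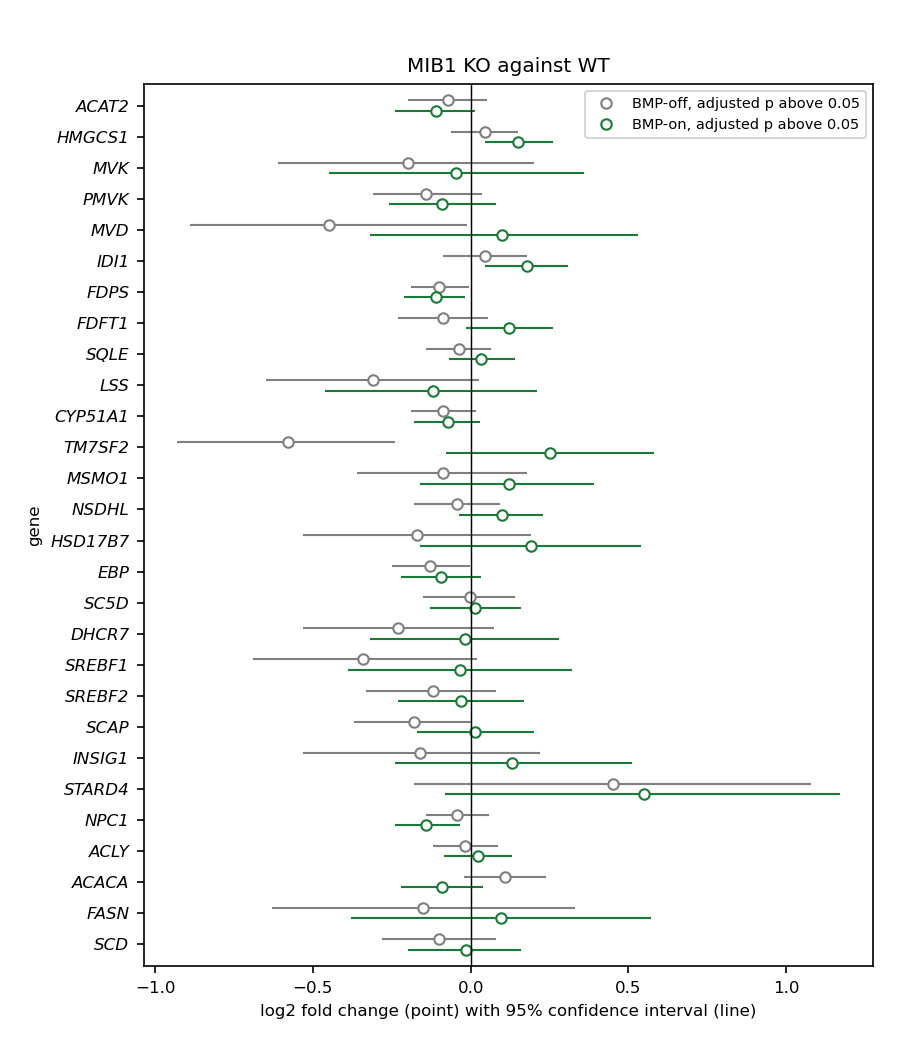
Log2 fold change of MIB1 KO over WT cells (horizontal axis) for each gene (vertical axis) with 95% confidence intervals, in the BMP-off (grey) and BMP-on states (green). All points are open, since the adjusted p exceeded 0.05 for 28 of 28 genes in both states, and the widest intervals belong to *STARD4*.

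For the difference between both BMP responses the main edgeR fit called 0 of 28 members, against 0.0931% of all genes tested. An unadjusted p under 0.05 was seen for 3 members, as for 10.6% of all genes. DESeq2 called 1 (*TM7SF2*) and limma-voom 0. The differences were positive for 24 members and for 9003 of all 17188 genes, with medians of 0.12 and 0.012. They share the KO BMP-off libraries with the comparison of KO and WT cells in the BMP-off state. After the GC correction the differences were positive for 20 members, with a median of 0.069.

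Other genes of lipid metabolism, from lists compiled from general knowledge, were also counted in the BMP response of KO cells. Of 20 further genes of sterol and lipid synthesis 2 rose and 5 fell, of 9 measured genes of sterol efflux and the LXR pathway 2 rose and 1 fell, and of 11 measured genes of fatty acid oxidation 1 rose and 2 fell. Together these are 13 of 40, or 32.5%, against 22.0% of all genes, with a median of -0.012. *TMEM97*, a binding partner of NPC1, averaged 53.8 ± 2.09 CPM with BMP-off and 42.5 ± 0.796 CPM with BMP-on (SD, n = 3 each), and fell by 0.34 (SE 0.051, edgeR Benjamini-Hochberg adjusted p = 1.41e-04). *NCEH1*, which frees cholesterol from its esters, fell by 0.39 (SE 0.063, edgeR Benjamini-Hochberg adjusted p = 3.40e-04). *LBR*, a nuclear envelope protein that catalyzes the same sterol reduction as TM7SF2, averaged 212 ± 12.7 CPM with BMP-off and 175 ± 6.31 CPM with BMP-on (SD, n = 3 each), and fell by 0.28 (SE 0.048, edgeR Benjamini-Hochberg adjusted p = 5.58e-04). Both enzymes of this step were thus called in KO cells, in opposite directions.

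In WT cells 0 of the 40 further genes were called by edgeR, with 7 at an unadjusted p under 0.05 (15.3% of all genes). DESeq2 called 1, against 5.06% of all genes. Between KO and WT cells in the BMP-on state 1 was called, *CPT1A*, the gate of fatty acid entry into mitochondria. It averaged 237 ± 6.04 CPM in WT libraries and 203 ± 5.08 CPM in KO libraries (SD, n = 3 each) and fell by 0.23 (SE 0.044, edgeR Benjamini-Hochberg adjusted p = 0.00631). The call was lost without WT BMP-on replicate 3, where 0 of the 40 were called, against 1.86% of all genes. DESeq2 called 3 (*CPT1A*, *LBR* and *TMEM97*, all lower), 5 were called when only these groups were fitted and 6 after the GC correction. The shares of all genes in these fits were 4.42%, 7.39% and 7.39%, against 3.67% in the main fit. In the BMP-off state and in the test of the difference between responses edgeR called 0, with 8 and 7 at an unadjusted p under 0.05 (10.2% and 10.6% of all genes), and DESeq2 called 0.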

How the data were processed

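The authors took out ribosomal reads, placed the remainder on GRCh38 by GSNAP and summed reads over RefSeq exons per gene by HTSeqGenie. The deposited counts are whole numbers without normalization. The RPKM table deposited by the authors, normalized between libraries, served for levels between genes and for alternatives, tested as log2(RPKM + 1) or log2(RPKM + 0.1). The kit used for these libraries is not given in the sources used here. A total of 0 sample columns were left out. GENCODE v44 gave symbols to 57532 identifiers and none to 770.

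Tests used edgeR 4.0.16 in R 4.3.3 (TMM, default filter, robust quasi-likelihood fit over 12 libraries, 5 comparisons, Benjamini-Hochberg over all genes tested). In simulated data it recovered 83% to 86% of changes of 0.5 and 100% of changes of 1 (log2) in the 4 group comparisons, and 51% and 95% in the test of the difference between responses. The changed genes all lay above a mean level that *HSD17B7* and *STARD4* do not reach. Counts were drawn without the GC trends of the libraries, so these shares need not hold for the members. Tried beside it were limma 3.58.1 (voom weights after quantile normalization, as in the study), DESeq2 1.42.0, 2 scalings, 2 filters, a GC correction (loess per library, span 0.4), a replicate block, each library left out and both thresholds. Members and lists were chosen with earlier results of these data known. All members are named. Fold changes with SE and adjusted p are given where a member was called, for the responses and interaction of *TM7SF2*, for alternatives, and for up to 3 further lipid genes per comparison with the smallest adjusted p. Results for *FASN* and *TM7SF2* with BMP-off were added after their values were seen.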

Additional observations from a re-analysis of the deposited data

How the results depend on the processing

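None of the 7 member calls changed direction in 27 refits. Among members not called, 12 of the WT and 11 of the KO responses changed sign in at least 1 refit, *SCAP* in KO cells from the highest value (0.23), and with the GC correction 2 and 7 did. *TM7SF2* and *FDPS* kept their KO response in 27 of 27 refits. Of the other calls in KO cells, *ACAT2* and *NPC1* held in 26 refits and *IDI1* in 17, and of those in WT cells *FDPS* held in 25 and *ACAT2* in 11. In WT cells, against 2 members called, 1 was called with scaling by library size or upper quartile, with limma-voom, with each of the 3 RPKM fits and with the replicate block, 5 with the GC correction, 4 with the GC correction and the replicate block, and 0 with both thresholds. With single libraries left out it was 0 to 2, and 0 without WT BMP-off replicate 2 or WT BMP-on replicate 1. In KO cells, against 5, there were 8 without a filter, with limma-voom and with DESeq2, 10 with the GC correction, with or without the replicate block, and 1 with both thresholds. With single libraries left out it was 4 to 9, and 9 without KO BMP-off replicate 3. For KO against WT with BMP-on, against 0, there were 3 with the GC correction (*HMGCS1* and *IDI1* higher, *NPC1* lower), 2 with the block added to it and 1 with only the groups compared, and 0 to 0 with libraries left out. With BMP-off, against 0, there were 1 without a filter (*MVD*), 2 with the GC correction (*SREBF1* and *TM7SF2*), 1 with the block added to it and 1 with DESeq2, and 0 to 0 with libraries left out. For the difference between responses, against 0, there was 1 (*TM7SF2*) with the GC correction, with the block added to it, with DESeq2 and without KO BMP-off replicate 3, so that libraries left out gave 0 to 1. Of the 40 further genes, against 13 in KO cells, 0 passed both thresholds and 7 to 15 were called with libraries left out, 7 without KO BMP-off replicate 1 or KO BMP-on replicate 1 and 8 without KO BMP-on replicate 3. The share of all genes called in KO cells also moved, from 22.0% to 12.4% without a filter, 23.2% with limma-voom, 25.4% with DESeq2 and 30.4% without KO BMP-off replicate 3. It was 24.7% with the GC correction, 23.4% with the block added to it and 13.2% to 30.4% with single libraries left out. In WT cells the share was 8.96%, 8.28% and 2.09% to 6.39% likewise. There it was 3.79% to 4.31% with the 2 scalings and limma-voom, and 0.820% to 2.30% with the RPKM fits. With the GC correction it was 7.39% (BMP-on) and 0.559% (BMP-off) between KO and WT cells and 1.37% for the difference between responses. The cause of these shifts was not tested.

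There were 2 alternatives chosen after seeing the data. A GC correction within groups, which narrows the spread between replicates but keeps the error of the group means and so makes more calls, gave 5 in WT cells, 13 in KO cells, 3 (BMP-on) and 5 (BMP-off) between KO and WT cells and 3 for the difference between responses, against 10.3%, 34.6%, 7.92%, 6.42% and 6.63% of all genes in that fit. Without KO BMP-off replicates 2 and 3 (the lone library assumed to vary like the other groups), 3 members and 7 of the 40 further genes were called in KO cells, against 14.5% of all genes.

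Replicate numbers did not pair libraries. Residuals of same-numbered libraries correlated above 0.1 in 2 of 18 pairs, and 2 of 12 libraries correlated best with their own number. With the replicate block 1 member was called in WT and 6 in KO cells, against 3.08% and 19.9% of all genes. How far counting or the spread between libraries limited the intervals of the members was not tested. *STARD4* and *HSD17B7* had the fewest counts, at means of 17.2 and 98.5 per library.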
